A study of Mus musculus with 36 samples.

Results

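Plakophilin 4 (PKP4) is an armadillo-repeat protein of the p120-catenin group that sits at adherens junctions and takes part in the local control of the small GTPase RhoA, which drives actin assembly and myosin contraction at the cell cortex. Murine PKP4-KO keratinocytes were compared with WT keratinocytes after 72 h in high calcium medium (HCM), the longest exposure of the series to the calcium level that makes keratinocytes build junctions, stratify and start terminal differentiation. The comparison used 6 of the 36 RNA-seq libraries, 3 of PKP4-KO and 3 of WT cells, chosen by the genotype, medium and time codes of the sample titles. The titles give no hours but carry HD, read here as 72 h, or LD, read as 24 h. It asks which genes differ once the junctions and the differentiation programme have had 3 days to develop without PKP4.

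WT cells were isolated from newborn Pkp4+/+ pups and PKP4-KO cells from newborn Pkp4-/- pups. The knockout allele (Pkp4tm1b(EUCOMM)Wtsi, with the lacZ reporter removed by FLPe) lacks exon 9 of Pkp4 in all cells and was backcrossed to C57BL/6J. The epidermis was lifted off the dermis with dispase before the cells were freed. All cells grew on collagen I in low calcium medium (LCM, 50 µM CaCl2), to which 1.2 mM CaCl2 was added for HCM. The 24 h HCM and 72 h LCM libraries of both genotypes, 3 each, served for the comparison over time and over calcium. Rescue cells, which are PKP4-KO cells with a lentiviral EGFP-tagged human PKP4 under puromycin selection, are named where their level helps to read a value, without a test. The number of pups or isolates behind a genotype is not given in the sources used here, so p-values measure only the spread between libraries, which may be technical, and a difference between genotypes cannot be told apart from one between isolates.

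Raising calcium lets cadherins bind each other, after which adherens junctions, desmosomes and then tight junctions form and the cortical actin ring matures. In the epidermis the cells then leave the basal layer, exchange the keratins Krt5 and Krt14 for Krt1 and Krt10, and finally lay down the cornified envelope, a shell of involucrin, loricrin and small proline-rich and late cornified envelope proteins that transglutaminases crosslink and to which ceramides are bound.

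Pkp4 (ENSMUSG00000026991; GRCm39, chromosome 2, 58991088 to 59185552, forward strand) was measured first. Levels are given as scaled CPM, that is CPM over the library's total count multiplied by its TMM scaling factor, in the order of the replicate numbers. Pkp4 was at 8.26, 6.40 and 7.15 scaled CPM in the PKP4-KO libraries and at 38.5, 43.8 and 33.4 in the WT libraries, so that no PKP4-KO library reached any WT library. The mean fell from 38.6 ± 5.19 to 7.27 ± 0.936 (SD, n = 3), or to 18.8% of WT (log2 fold change -2.41, SE 0.17, adjusted p = 4.45e-12). The exact two-sided permutation test over the 6 libraries gave p = 0.1, the smallest value that 3 against 3 libraries allow. Counts were summed over all exons, so the remaining reads include those from the exons that the allele keeps. The authors name exon 9 as the deleted part without coordinates, and reads per exon were not examined. Exon 9 of 21 of the canonical transcript (GRCm39, chr2:59142038-59142257, forward strand, 220 bp), taken here to be that exon, reads in lower case:

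Pkp4 exon 9: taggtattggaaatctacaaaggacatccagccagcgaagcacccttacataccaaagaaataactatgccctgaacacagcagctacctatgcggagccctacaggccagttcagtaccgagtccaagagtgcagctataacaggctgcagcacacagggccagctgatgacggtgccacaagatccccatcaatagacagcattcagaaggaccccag

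The GFP-PKP4 sequence that marks the Rescue cells had 40, 3 and 8 counts in the PKP4-KO libraries and 19, 14 and 20 in the WT libraries, against 6399, 8768 and 5155 in the Rescue libraries of the same condition. The 19 tested genes within 5 Mb of Pkp4 had a median log2 fold change of -1.15, where the median over all tested genes was -0.072. Whole chromosomes differed too, with a median of -0.13 on chromosome 2. The lowest was -0.54 on chromosome 5 (98 of 976 genes higher, 438 lower), and chromosome X was at -0.50. The highest was 0.29 on chromosome 4 (317 of 943 higher, 221 lower). The cause was not tested.

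Total counts lay between 14299799 and 16137326 in the PKP4-KO libraries and between 13837045 and 17662963 in the WT libraries. A count of 3, the floor used for genes without reads, equals 0.341 to 0.436 scaled CPM in PKP4-KO and 0.176 to 0.308 in WT, and covers counting error only. The 100 genes with the most reads took 50.6 to 52.5% of the counts in PKP4-KO and 39.5 to 44.0% in WT, and the TMM factors were 0.481 to 0.546 and 0.705 to 0.980. The factors put scaled CPM in PKP4-KO at nearly double the plain share of reads, and without TMM factors the median gene lay at -0.83 on the log2 scale instead of -0.072. Changes below are relative to the typical gene. Many genes whose sign turns without TMM factors are marked where they are described. Others, among them Rhoa, Racgap1 and Pkp3, are listed only in the section on how the results depend on the processing. The third WT library stood apart: its chi-square per gene against the first and second WT libraries was 110.9 and 137, where these differed from each other by 8.75 and the PKP4-KO libraries from each other by 12.6 to 16.4. Short genes were higher and long genes lower in PKP4-KO, with a median of 0.85 in the shortest and -0.70 in the longest of 5 equal length bins of the tested genes. The third WT library differed from the other two in the same way, with 0.58 in the shortest and -0.36 in the longest bin. The gradient was similar at 72 h LCM (0.75 and -0.47) and weaker at 24 h HCM (0.13 and -0.23). Its part in the results was not tested, and list counts with an offset for gene length are given beside many of the lists below.

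**Figure D1:**
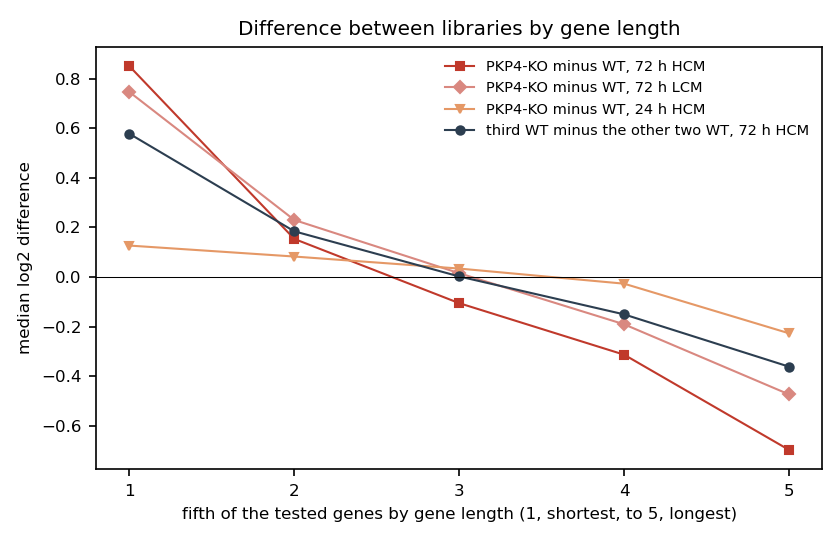
Median log2 difference (vertical axis) of the tested genes in 5 bins of gene length with equal numbers of genes (horizontal axis, from the shortest to the longest) for PKP4-KO minus WT in 3 culture conditions and for the third WT library minus the other two WT libraries at 72 h HCM. At 72 h HCM the median falls from 0.85 to -0.70, and between WT libraries from 0.58 to -0.36.

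Of 15114 tested genes, 3307 were higher in PKP4-KO (21.9%) and 4524 were lower (29.9%) at an adjusted p below 0.05. Without TMM factors the split was 1268 higher and 8133 lower, and with a length offset 3778 higher and 3783 lower. Of the calls, 1975 higher and 2896 lower genes differed by at least 1 on the log2 scale, and 201 and 191 by at least 5. In 27.3% of the tested genes every PKP4-KO library lay above every WT library, and in 30.9% every one lay below. The counts of any gene list are to be read against 21.9% and 29.9%.

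**Figure D2:**
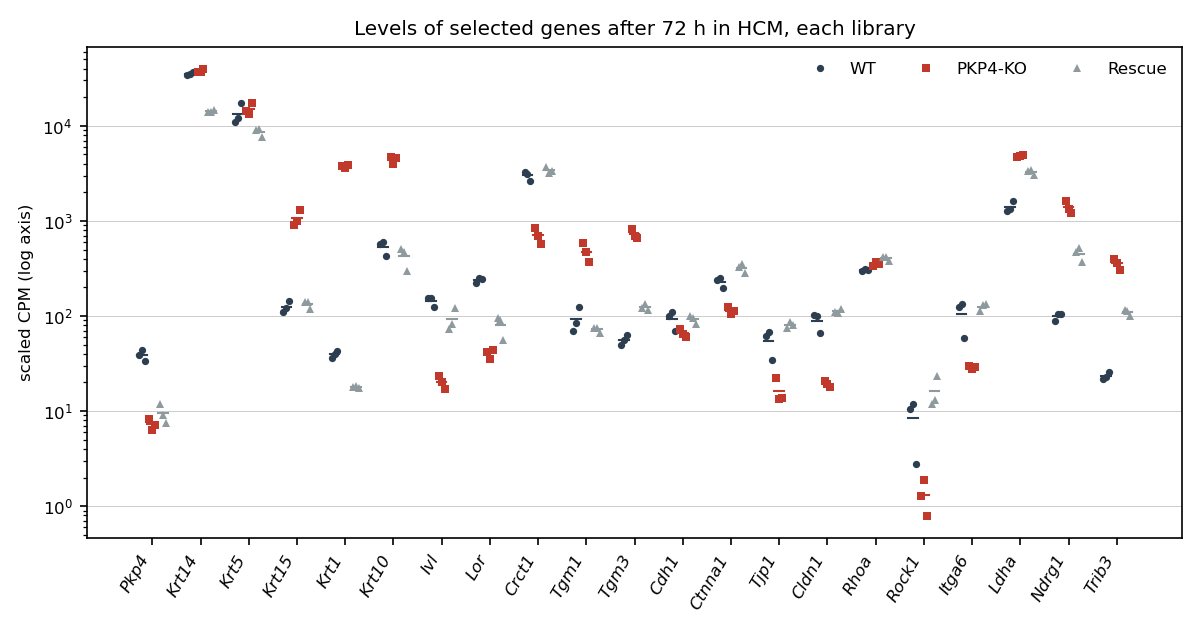
Scaled CPM (log axis) of 21 genes in each of the 3 WT, 3 PKP4-KO and 3 Rescue libraries after 72 h in HCM. Points are libraries and short lines are means of 3. Krt14 and Krt5 lie close together in WT and PKP4-KO, Krt1, Krt10, Tgm1, Tgm3, Ndrg1 and Trib3 lie higher in every PKP4-KO library, and Pkp4, Ivl, Lor, Crct1, Ctnna1, Tjp1, Cldn1, Rock1 and Itga6 lie lower.

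The largest differences were between presence and near absence of a transcript. Serpinb6b (chromosome 13, 33073279 to 33163050), a serine protease inhibitor gene, had no read in any PKP4-KO library and stood at 19.9, 24.8 and 17.4 scaled CPM in WT, at least 53.7-fold lower against the floor of 3 counts per library. H2.M9, as the table names it, a non-classical MHC class I gene, also had no read in PKP4-KO and 11.5, 10.3 and 14.7 in WT, at least 31.5-fold lower. Both belong to families of similar genes, so that their counts are uncertain where reads could be shared.

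Among strongly expressed genes, Igfbp2 (chromosome 1, 72863606 to 72891634), which binds insulin-like growth factors, was at 15.4, 7.27 and 9.43 scaled CPM in PKP4-KO and 1644, 1644 and 1832 in WT (log2 fold change -7.32, SE 0.44, adjusted p = 1.58e-13). Ppbp, a platelet-type chemokine, was at 1.65, 1.31 and 0.227 against 509, 582 and 452 (log2 fold change -8.95, SE 0.35, adjusted p = 4.88e-17). Rescue libraries had 41.7, 43.8 and 61.1 for Igfbp2 and 70.4, 67.4 and 118 for Ppbp. Also among the 15 lower genes with the largest change were some with 1 to 3 counts in all PKP4-KO libraries together, for which the ratio of the mean levels is given with its 95% counting interval: Upk1b, a uroplakin (759-fold, 136 to 29980.0), Vnn1, a pantetheinase (319.8-fold, 57.4 to 12630.0), the basement membrane collagen chain Col4a2 (264-fold, 73.1 to 2180.0) and Gcnt3 (171-fold, 58.6 to 831). By the fitted log2 fold change the group also held Pmp22 (-7.97), Acta2, the smooth muscle actin (-6.58), and the peroxiredoxin Prdx4 (-6.31). Serpinb9b (-7.72), Mgam (-6.75), Klra8 (-6.22) and Ntm (-6.17) completed the 15.

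In the other direction, Cphx1, a homeobox gene, had 28.8, 40.7 and 30.1 scaled CPM in PKP4-KO and no read in WT, at least 150.7-fold higher, and the neuritin gene Nrn1 had 18.3, 16.4 and 16.6 and none, at least 77.6-fold higher. Serpinb3a (chromosome 1, 106973317 to 106980033), an inhibitor of cysteine and serine proteases of stressed epidermis, was at 679, 825 and 688 against 0.472, 1.23 and 1.85 (log2 fold change 9.34, SE 0.54, adjusted p = 5.58e-14). Ndufa4l2 (chromosome 10, 127350818 to 127353038), a mitochondrial protein gene known to respond to low oxygen, was at 305, 269.8 and 180.4 against 0.295, 0.470 and 0.410 (log2 fold change 9.31, SE 0.70, adjusted p = 1.3e-11). With 1 to 3 counts in WT, Ctsz (992-fold, 275 to 8193), Calr4 (866-fold, 156 to 34220.0), Mgarp (554-fold, 153 to 4570.0), Krt25 (362-fold, 100.1 to 2987), Cldn17 (358-fold, 99.0 to 2953) and Alox12 (317-fold, 87.7 to 2615) were higher in PKP4-KO by the ratio and counting interval given. The other genes in the group of 15 were Rbp7 (9.79), Adm2 (8.03), Xlr3b (7.62), Sprr2b (7.58) and Snai1 (7.36), a repressor of epithelial cadherin genes.

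The gene lists that follow were grouped by function. Their counts are drawn in the plot of calls per gene list.

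**Figure D3:**
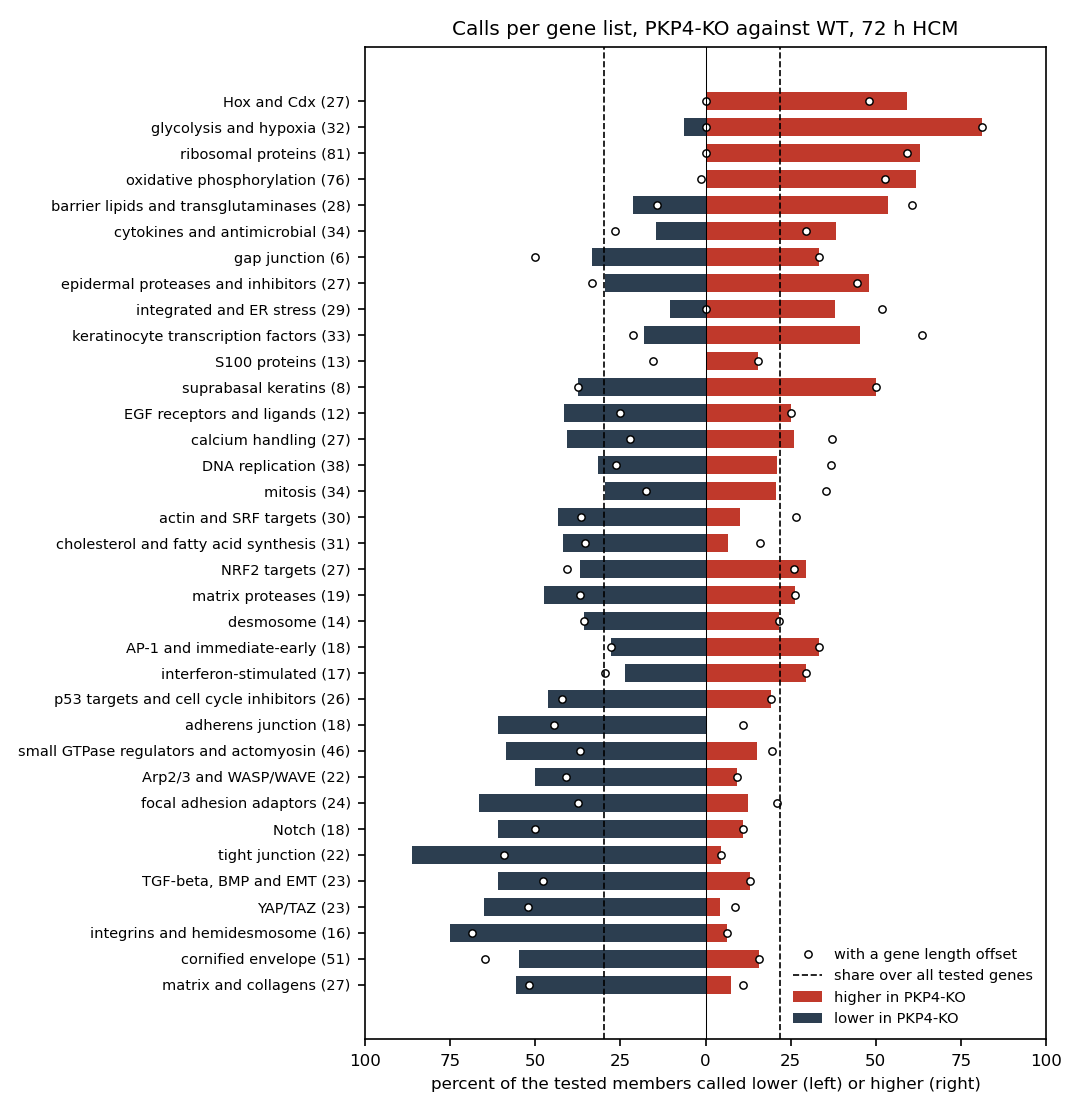
Percent of the tested members of each gene list (number in brackets) called higher (right, red) or lower (left, dark) in PKP4-KO at 72 h HCM, ordered by the median log2 fold change. Open circles show the same with a gene length offset, and dashed lines the share over all tested genes, 21.9% higher and 29.9% lower. Among lists of more than 10 tested genes, tight junction genes lie farthest out on the lower side (19 of 22) and glycolysis and hypoxia genes on the higher side (26 of 32).

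Genes of cell-cell junctions, the structures at which PKP4 resides, were mostly lower where they belong to tight and adherens junctions and split where they belong to desmosomes. Of 22 tested tight junction genes 19 fell and 1 rose, with a median of -1.09, and with a length offset 13 fell. Cldn1, the claudin on which the epidermal barrier depends, was at 20.96, 19.2 and 18.1 scaled CPM in PKP4-KO and 102, 99.2 and 65.5 in WT (log2 fold change -2.20, SE 0.20, adjusted p = 3.6e-10). Tjp1, which encodes the scaffold protein ZO-1, was at 22.2, 13.4 and 13.6 against 61.9, 68.5 and 34.8 (log2 fold change -1.75, SE 0.27, adjusted p = 6.31e-06). Both sets of libraries stayed apart for both genes, with the third WT library nearest to PKP4-KO. Marveld2, the tricellulin gene of three-cell contacts, was at 1.52, 1.89 and 1.48 against 7.62, 6.46 and 4.41 (log2 fold change -1.93, SE 0.34, adjusted p = 3.72e-05). The polarity genes Pals1 (-3.41), Magi3 (-2.73) and Patj (-1.58) fell too. The single member that rose, F11r, which encodes the adhesion molecule JAM-A, turned to -0.28 without TMM factors from 0.49.

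Among adherens junction genes, 11 of 18 fell and none rose, with a median of -0.54, and 8 fell and 2 rose with a length offset. Ctnna1, which encodes the alpha-catenin that ties cadherin to actin, was at 124, 106 and 112 scaled CPM in PKP4-KO and 237, 252 and 196 in WT (log2 fold change -1.003, SE 0.15, adjusted p = 2.17e-06). Every WT library lay above every PKP4-KO library. Cdh1, the E-cadherin gene, was at 72.8, 64.0 and 60.1 against 99.0, 109.8 and 69.4 (log2 fold change -0.50, SE 0.18, adjusted p = 0.021), and its call was lost with a length offset (log2 -0.26, adjusted p = 0.121). Vcl, the vinculin gene, fell as well (log2 fold change -0.70, SE 0.19, adjusted p = 0.0027) and lost its call in the same way (log2 -0.12, adjusted p = 0.502). The genes of beta-catenin and p120-catenin, Ctnnb1 and Ctnnd1, were not called, with log2 fold changes of -0.30 (adjusted p = 0.372) and -0.24 (adjusted p = 0.532). Arvcf, a p120-group gene like Pkp4, fell (-1.45), and so did Lima1 (-1.12), which stabilizes junctional actin.

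The desmosome list was split, with 3 of 14 higher, 5 lower and a median of -0.36, or 0 higher and 9 lower without TMM factors. The desmosomal cadherins Dsg3, at 127, 99.9 and 92.0 scaled CPM against 376, 408 and 204 in WT (log2 fold change -1.63, SE 0.27, adjusted p = 1.3e-05), and Dsc3, at 101, 93.5 and 74.8 against 262, 291 and 104 (log2 fold change -1.29, SE 0.39, adjusted p = 0.00692), fell. Dsc2 (-1.97) and Cdsn, the corneodesmosin gene of the outermost layers (-1.46), fell too. The plaque genes Jup and Pkp1 moved the other way, but not the plaque genes as a class. Jup, the plakoglobin gene, was at 2777, 2266 and 2263 against 1119, 1254 and 1958 (log2 fold change 0.75, SE 0.20, adjusted p = 0.00209), and Pkp1 at 2963, 2616 and 2642 against 1369, 1463 and 1558 (log2 fold change 0.91, SE 0.12, adjusted p = 2.56e-07). Both had a log2 fold change near 0 without TMM factors, 0.039 for Jup and 0.15 for Pkp1. Their share of the reads thus changed little, while it rose against the typical gene. Dsp, the desmoplakin gene, was at 1411, 993 and 1033 against 2211, 2370.1 and 1082 and missed the threshold (log2 fold change -0.72, SE 0.31, adjusted p = 0.0552), and Pkp3 was not called either (0.14, adjusted p = 0.396). The near copies Dsg1a and Dsg1b, which may share reads, had log2 fold changes of -0.61 (adjusted p = 0.161) and -0.11 (adjusted p = 0.804).

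Gap junction genes had 2 of 6 members higher and 2 lower, or 2 higher and 3 lower without TMM factors. Gjb2, the connexin 26 gene of hyperproliferative and differentiating epidermis, was at 399, 384 and 254 scaled CPM in PKP4-KO and 20.3, 23.8 and 30.4 in WT, a 13.9-fold difference of the means (log2 fold change 3.80, SE 0.23, adjusted p = 9.74e-14). Gja1, the connexin 43 gene, rose as well (log2 fold change 1.30, SE 0.12, adjusted p = 6.73e-10), while Gjb5 fell (-0.65) and lost its call without the third WT library (adjusted p = 0.139).

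The main keratins of the first suprabasal layers were far higher in PKP4-KO, while Krt14 and Krt5 of the basal layer did not pass the test. The 3 basal keratins tested had 1 higher and 2 lower calls without TMM factors (median -0.57), where Krt14 and Krt5 changed sign. Krt14 was at 37138, 36863 and 39275 scaled CPM in PKP4-KO and 34134, 34958 and 36836 in WT (log2 fold change 0.097, SE 0.15, adjusted p = 0.601), and Krt5 at 14161, 13361 and 17187 against 11030.0, 12057 and 17273 (log2 fold change 0.15, SE 0.18, adjusted p = 0.504). Krt1 (chromosome 15, 101753861 to 101759229) was at 3773, 3642 and 3841 against 36.1, 39.7 and 43.3, a 94.5-fold difference (log2 fold change 6.56, SE 0.59, adjusted p = 3.6e-10). Its partner Krt10 was at 4705, 3986 and 4619.9 against 573, 604 and 424, or 8.32-fold (log2 fold change 3.06, SE 0.41, adjusted p = 4.64e-07). The Rescue libraries had 17.8, 18.1 and 17.5 for Krt1 and 504, 468 and 298 for Krt10. Krt15, a keratin of basal cells, rose too, with 905, 996 and 1305 against 109.5, 121 and 145 (log2 fold change 3.09, SE 0.27, adjusted p = 1.87e-10). Krt24, a keratin of differentiating cells, had 7.49, 10.03 and 9.54 in PKP4-KO and no read in WT, at least 40.95-fold higher.

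Of 8 tested suprabasal keratins 4 rose and 3 fell (3 higher and 4 lower without TMM factors). Krt23 was at 6.10, 5.23 and 4.77 scaled CPM against 63.9, 58.7 and 63.2 (log2 fold change -3.53, SE 0.36, adjusted p = 3.64e-09), and Krt13 (-1.45) and Krt4 (-0.77), keratins of internal stratified epithelia, fell as well. Of 5 simple-epithelium keratins 1 rose (Krt18, from 7 counts) and 3 fell: Krt19, Krt20 and Krt8 fell from low WT means of 7.04, 3.75 and 1.36 scaled CPM to 1 to 3 counts in PKP4-KO (ratios of 166-fold, 29.8 to 6546, of 88.4-fold, 15.9 to 3491 and of 10.7-fold, 3.66 to 51.8, as counting intervals). All 4 stress keratins were called higher. Krt6b was at 37441, 34866 and 31746 against 9984, 10099 and 14273 (log2 fold change 1.60, SE 0.19, adjusted p = 1.04e-07) and Krt17 at 20224, 19631 and 19203 against 6189.8, 6547 and 8152 (log2 fold change 1.499, SE 0.15, adjusted p = 3.19e-09). Krt6a (0.75) and Krt16 (0.70) turned to -0.003 and -0.049 without TMM factors, and Krt16 lost its call with a length offset. Krt6a took 2.21% of the reads in PKP4-KO and 2.22% in WT, the same share before scaling. Krt6a and Krt6b are near copies whose reads may be split between them.

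Most genes of the cornified envelope, the end point of differentiation, were lower in PKP4-KO, and many of these were late cornified envelope genes. The few that were higher included Sprr2a and Sprr2b copies. Of 51 tested members 28 fell and 8 rose, with a median of -1.72. Most of these genes are short, and with a length offset the median was -2.74 and 33 fell. Summed over the list, levels were 64481, 61650 and 52049 scaled CPM in PKP4-KO and 31972, 29889 and 52762 in WT. The list as a sum was thus not lower. Ivl, the involucrin gene, was at 23.4, 20.2 and 17.3 scaled CPM in PKP4-KO and 154, 154 and 124 in WT (log2 fold change -2.83, SE 0.29, adjusted p = 4.01e-09). Lor, the loricrin gene, was at 41.9, 35.5 and 43.9 against 223, 249 and 243 (log2 fold change -2.56, SE 0.37, adjusted p = 1.72e-06). Rescue libraries stood between, with 72.5, 83.2 and 122 for Ivl and 94.2, 91.6 and 55.3 for Lor. Crct1, at 847, 698 and 576 against 3281, 3108 and 2632 (log2 fold change -2.09, SE 0.29, adjusted p = 9.86e-07), and Kprp (-2.71) also fell.

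The late cornified envelope genes fell as a block. Every tested Lce1 gene was lower, from -2.79 for Lce1f to -4.21 for Lce1j, and so was each Lce3 gene except Lce3c (-0.85, adjusted p = 0.0673). Lce3d was at 83.6, 69.3 and 43.4 scaled CPM against 711, 627 and 839 (log2 fold change -3.47, SE 0.31, adjusted p = 3.49e-10). These genes lie together on chromosome 3 with Ivl (from 92478209) and Lor (from 91987578) in the epidermal differentiation complex, and as near copies of each other their single values are uncertain. The plakin Ppl, a scaffold of the envelope, fell (log2 fold change -1.41, SE 0.27, adjusted p = 8.75e-05) while its partner Evpl was not called (-0.25, adjusted p = 0.404).

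Some genes of the same complex rose. Sprr2b was at 1591, 1424 and 1018 scaled CPM against 5.26, 4.29 and 11.998 (log2 fold change 7.58, SE 0.71, adjusted p = 9.57e-10), and Sprr2a1 (2.62), Sprr2a2 (2.19) and Sprr2a3 (2.97) rose with it. Sprr2a1 and Sprr2a2 overlap, and reads of the Sprr2 copies may be shared. Sprr3 (-3.27) and Sprr2k (-2.09) fell, as did Sprr2d (-1.21) and Sprr2i (-1.72), which lost their call without the third WT library. Sprr1a, one of the genes with the most reads in WT, did not pass the test (0.29, adjusted p = 0.451; -0.59 with a length offset). Flg, the filaggrin gene of the granular layer, rose from low counts, at 7.88, 6.98 and 6.25 against 0.472, 0.940 and 0.205 (log2 fold change 3.62, SE 0.72, adjusted p = 0.000148). Krtdap (log2 fold change 1.86, SE 0.71, adjusted p = 0.0298) and Cnfn (log2 fold change 1.56, SE 0.49, adjusted p = 0.00995), short genes of the granular layers, rose too.

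**Figure D4:**
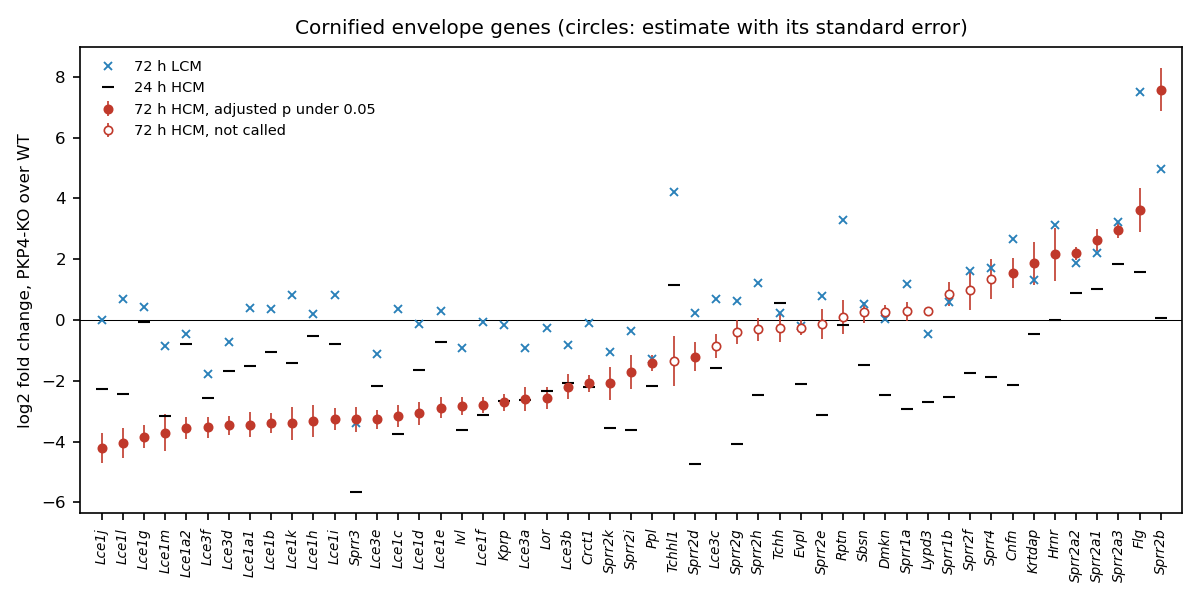
Log2 fold change of PKP4-KO over WT (vertical axis) for the 51 tested cornified envelope genes, ordered by their value at 72 h HCM. Circles are the estimate at 72 h HCM with its approximate standard error, filled where the adjusted p was below 0.05. Crosses show 72 h LCM and bars 24 h HCM. The Lce1 genes, from -2.79 to -4.21 at 72 h HCM, lie between -0.84 and 0.83 at 72 h LCM.

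The enzymes that crosslink the envelope and make its lipids were mostly higher. Of 28 tested genes 15 rose and 6 fell with a median of 0.76; without TMM factors 9 rose and 8 fell. Tgm1, the transglutaminase of the cell membrane, was at 592, 471 and 365 scaled CPM in PKP4-KO and 69.6, 85.4 and 126 in WT (log2 fold change 2.35, SE 0.21, adjusted p = 3.54e-10). Tgm3 was at 831, 696 and 664 against 49.96, 55.8 and 63.6 (log2 fold change 3.69, SE 0.21, adjusted p = 3.6e-14), and Tgm5 rose as well (1.72). Alox12b, a lipoxygenase needed to attach ceramides, was at 189, 128 and 96.4 against 16.004, 15.6 and 27.5 (log2 fold change 2.81, SE 0.28, adjusted p = 3.82e-09), while its partner enzyme gene Aloxe3 fell (-0.69; adjusted p = 0.265 with a length offset). Abca12, the lipid transporter of lamellar bodies, fell (log2 fold change -1.04, SE 0.28, adjusted p = 0.00332) and lost its call with a length offset (log2 -0.17). Casp14, the caspase of cornification, rose (log2 fold change 1.67, SE 0.20, adjusted p = 9.57e-08).

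Epidermal proteases and their inhibitors held 13 higher and 8 lower genes of 27, and 9 and 12 without TMM factors. Klk5, a kallikrein that cleaves corneodesmosomes, was at 154, 146 and 129.7 scaled CPM against 8.44, 10.98 and 14.7 in WT (log2 fold change 3.66, SE 0.36, adjusted p = 2.01e-09), while Klk7, which acts with it, was at 172, 135 and 114 against 338, 318 and 486 (log2 fold change -1.44, SE 0.29, adjusted p = 0.00018). The inhibitor gene Spink5 fell (log2 fold change -1.01, SE 0.42, adjusted p = 0.044; adjusted p = 0.102 with a length offset). Among the cystatin and stefin genes, Stfa3 was at 2811, 3557 and 3247 against 21.4, 16.5 and 58.04 (log2 fold change 6.65, SE 1.04, adjusted p = 5.53e-06) and Csta1 at 1895, 2474 and 1780.2 against 154, 109 and 389 (log2 fold change 3.24, SE 0.81, adjusted p = 0.0015). The stefins are near copies of each other. Serpinb2 (2.58), Serpinb12 (5.79) and Serpinb5 (1.22) rose, and the membrane protease genes Prss8 (-2.19) and St14 (-0.75, not called with the offset) and the inhibitor genes Spint1 (-0.83) and Spint2 (-0.78) fell.

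Of 13 tested S100 genes, only S100a8 and S100a9, the subunits of calprotectin, passed the test (2 higher and 4 lower without TMM factors, and 2 and 2 with a length offset). S100a9 was at 2734, 3127 and 2322 scaled CPM against 144, 111 and 482 (log2 fold change 3.47, SE 0.84, adjusted p = 0.00107) and S100a8 at 1467, 1622 and 1178 against 65.0, 47.4 and 276 (log2 fold change 3.46, SE 1.05, adjusted p = 0.00712). The third WT library was the highest of the WT libraries for both. Without it 4 S100 genes were called higher. Among other calcium binding proteins, the calmodulin-like skin genes rose, with Calm4 at 8744, 9498 and 8639 against 1154, 1090.4 and 2081 (log2 fold change 2.64, SE 0.39, adjusted p = 2.99e-06), Calml3 at 2.35 and Calm5 at 4.64. The calcium channel subunit Orai3 (-2.84) and the pump Atp2b1 (-2.02) fell. Atp2a2, the endoplasmic reticulum pump whose loss affects desmosomes in Darier disease, fell (log2 fold change -0.85, SE 0.29, adjusted p = 0.0147) and lost its call with a length offset. In all 7 of 27 calcium handling genes rose and 11 fell, against 10 and 6 with the offset and 4 and 19 without TMM factors. Fabp5 and Lgals7, a lipid carrier and a galectin of stratified epithelia that were among the 10 genes with the most reads in PKP4-KO, rose as well, Fabp5 to 20155, 24633 and 21884 from 2172, 1938 and 3226 (log2 fold change 3.18, SE 0.39, adjusted p = 1.24e-07) and Lgals7 to 22191, 32362 and 23216 from 2574, 2199 and 9886 (log2 fold change 2.41, SE 0.84, adjusted p = 0.0187).

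Of the transcription factors that control the epidermis 15 of 33 rose and 6 fell (median 0.19), and 8 and 14 without TMM factors. Tfap2c was at 34.6, 33.9 and 28.5 scaled CPM in PKP4-KO and 0.236, 1.12 and 0.718 in WT (log2 fold change 5.54, SE 0.32, adjusted p = 4.46e-14), and Barx2 at 142, 200.2 and 177 against 9.92, 8.51 and 23.1 (log2 fold change 3.66, SE 0.47, adjusted p = 3.22e-07). Both were separated completely from WT. Maf (2.35), Elf3 (1.64), Ovol1 (1.38), Grhl3 (1.18) and Klf4 (0.93), which promote late differentiation, rose. Ets1 was at 1.91, 2.18 and 2.27 against 18.4, 18.6 and 10.3 (log2 fold change -2.90, SE 0.30, adjusted p = 4.96e-09), and Tfcp2l1 (-3.13), Prdm1 (-1.87) and Tead1 (-2.82) fell. Trp63, the p63 gene that maintains the epithelial lineage, was not called, at 62.4, 53.2 and 62.3 against 80.7, 84.3 and 38.4 (log2 fold change -0.20, adjusted p = 0.572).

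Notch signalling starts differentiation as cells leave the basal layer, and 11 of its 18 tested genes fell while 2 rose (median -0.84, -0.33 with a length offset). The ubiquitin ligase gene Dtx4 was at 0.254, 0.727 and 0.454 scaled CPM against 14.2, 14.3 and 13.3 (log2 fold change -4.87, SE 0.32, adjusted p = 8.94e-13), and the coactivator gene Maml2 at 0.127, 0 and 0.114 against 7.205, 5.11 and 5.02 (adjusted p = 4.36e-11; ratio from 2 counts 68.1-fold, 18.8 to 562). The ligand genes Jag1 (-1.18) and Dll1 (-1.503) and the target Nrarp (-1.07) fell too. Notch1, the main receptor of keratinocytes, fell (log2 fold change -0.86, SE 0.23, adjusted p = 0.0023) but was at -0.013 with a length offset.

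Small GTPase signalling and actin are the processes for which PKP4 is best known, and most of the tested regulators were lower. Of 46 tested small GTPase regulators and actomyosin genes 27 fell and 7 rose (median -0.70). With a length offset 17 fell and 9 rose, and without TMM factors 38 fell and 3 rose. The genes of the kinases that RhoA activates fell, with Rock1 at 1.27, 1.89 and 0.795 scaled CPM in PKP4-KO and 10.6, 11.98 and 2.77 in WT (log2 fold change -2.72, SE 0.63, adjusted p = 0.000701) and Rock2 at 3.43, 2.33 and 2.73 against 14.3, 13.7 and 5.95 (log2 fold change -2.01, SE 0.46, adjusted p = 0.000703). In both the third WT library was far nearer to PKP4-KO than the other two. Ppp1r12a, the targeting subunit of the myosin phosphatase that these kinases inhibit, fell as well (log2 fold change -1.90, SE 0.34, adjusted p = 3.18e-05), and so did Limk1 (log2 fold change -1.47, SE 0.21, adjusted p = 1.53e-06), the kinase of cofilin. Of the GTPase genes themselves, Rhoa was at 333, 370.4 and 350.0 against 295, 311 and 302 (log2 fold change 0.22, adjusted p = 0.0831), Rac1 was at -0.23 (adjusted p = 0.172), neither of them called, and Cdc42 passed the test at 0.29 but turned to -0.46 without TMM factors.

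Among the GTPase activating proteins, which switch GTPases off, Arhgap21 was at 5.46, 2.62 and 4.54 scaled CPM against 24.3, 27.5 and 8.51 (log2 fold change -2.25, SE 0.39, adjusted p = 2.22e-05) and Arhgap23 at 26.8, 18.9 and 22.4 against 49.4, 56.6 and 52.8 (log2 fold change -1.22, SE 0.15, adjusted p = 1.29e-07). Arhgap24 rose from a low level (log2 fold change 1.42, SE 0.34, adjusted p = 0.00104). Among exchange factors, which switch it on, Ect2 was at 4.83, 5.81 and 4.88 against 26.99, 26.2 and 7.38 (log2 fold change -1.98, SE 0.48, adjusted p = 0.00122), while Arhgef2 was at 25.5, 23.8 and 24.6 against 16.6, 18.4 and 18.3 (log2 fold change 0.48, SE 0.14, adjusted p = 0.00729) and turned to -0.29 without TMM factors. Racgap1, the partner of Ect2, was not called (0.027, adjusted p = 0.902). The Rnd proteins, which antagonize RhoA, differed among themselves: Rnd1 (2.65) and Rnd2 (1.08) rose and Rnd3 fell (-0.92).

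The myosin genes moved apart. Myh9, the main non-muscle myosin heavy chain, was at 124, 95.8 and 103 scaled CPM against 155, 193 and 144 (log2 fold change -0.60, SE 0.19, adjusted p = 0.0105) and turned to 0.18 (adjusted p = 0.342) with a length offset. Myh14, a related heavy chain, was at 116, 81.1 and 86.5 against 22.03, 21.96 and 19.8 (log2 fold change 2.15, SE 0.27, adjusted p = 2e-07), and the light chain gene Myl6 at 2468, 2536 and 2305 against 650.5, 592 and 1265 (log2 fold change 1.54, SE 0.43, adjusted p = 0.00363). Myh14 and Myl6 kept a value above 1 with the offset, 2.65 and 1.57.

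Among 30 actin genes and targets of serum response factor 13 fell and 3 rose, and with a length offset 11 fell and 8 rose, or 24 and 1 without TMM factors. Cnn3, a calponin of stress fibres, was at 35.2, 31.8 and 22.6 scaled CPM against 150.5, 174 and 130.2 (log2 fold change -2.34, SE 0.22, adjusted p = 1.04e-09), and Tpm1, a tropomyosin gene, at 95.0, 102 and 117 against 295, 302 and 315 (log2 fold change -1.54, SE 0.15, adjusted p = 3.08e-09). The genes of the membrane linkers moesin, radixin and ezrin fell, Msn (-1.28), Rdx (-1.72) and Ezr (-0.84). Actg1, a cytoplasmic actin gene whose reads may be shared with Actb, rose (log2 fold change 1.13, SE 0.21, adjusted p = 5.8e-05), and Actb was not called (0.75, adjusted p = 0.3). Flna, the filamin A gene, fell (-0.47) but was at 0.16 with a length offset.

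Branched actin is nucleated by the Arp2/3 complex downstream of WASP and WAVE proteins, and 11 of 22 of these genes fell and 2 rose, or 19 and 0 without TMM factors (median -0.76, or -0.47 with genes at the floor set to their bound). The WAVE complex gene Nckap1 was at 28.1, 27.6 and 21.8 scaled CPM against 143, 162 and 74.7 (log2 fold change -2.29, SE 0.36, adjusted p = 7.37e-06). Wasl (-1.497), Abi1 (-1.37) and Actr2 (-1.25) fell too, and Arpc4 rose (0.59; -0.16 without TMM factors).

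Most genes for contacts with the matrix were lower. Of 16 integrin and hemidesmosome genes 12 fell and 1 rose (median -1.28), against 11 and 1 with a length offset (median -0.67). Itga6, a subunit of the hemidesmosomal integrin, was at 29.7, 27.8 and 29.4 scaled CPM in PKP4-KO and 125, 133 and 59.0 in WT (log2 fold change -1.87, SE 0.32, adjusted p = 1.95e-05), and Itga3, a subunit of the laminin receptor of focal contacts, at 66.4, 54.8 and 51.7 against 148, 143 and 156 (log2 fold change -1.37, SE 0.14, adjusted p = 3.02e-09). No library of one genotype lay within the range of the other for either gene. Itgb6 (-2.19), Itgb5 (-1.96) and Itgav (-2.42) fell, and Itgb1 missed the threshold (-0.54, adjusted p = 0.0568). The laminin chain genes Lama3 (-1.32) and Lamb3 (-0.96) and the collagen gene Col17a1 (-0.89) fell together. Plec, the plectin gene, was called higher (0.45) but lay at -0.32 without TMM factors.

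In focal adhesion adaptors 16 of 24 fell and 3 rose, against 9 and 5 with a length offset. Tns3, a tensin gene, was at 4.45, 1.02 and 4.66 scaled CPM against 34.3, 32.9 and 25.9 (log2 fold change -3.17, SE 0.28, adjusted p = 2.99e-10), and Lims2 fell as well (-2.95). Pxn, the paxillin gene, was at 47.6, 42.4 and 46.1 against 84.0, 91.1 and 119 (log2 fold change -1.11, SE 0.15, adjusted p = 4.71e-07), and its adjusted p was 0.067 with the offset. Ptk2, the gene of focal adhesion kinase, fell (log2 fold change -0.77, SE 0.21, adjusted p = 0.00327) but was at 0.017 with the offset. Enah, an actin elongation factor of the Ena/VASP group, was called higher (0.79), lay at -0.034 without TMM factors, and missed the threshold without the third WT library (adjusted p = 0.073).

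Matrix genes had a median of -1.85 against -0.072 over all tested genes, with 15 of 27 lower and 2 higher. The median was -1.59 with genes at the floor set to their bound. Many of these genes are long, and with a length offset 14 fell and 3 rose (median -1.45). Sparc (chromosome 11, 55285317 to 55314067), a collagen binding glycoprotein, was at 47.1, 42.9 and 61.0 scaled CPM against 417, 420.3 and 449.7 (log2 fold change -3.09, SE 0.14, adjusted p = 2.37e-16). Col4a2 was at 0, 0.145 and 0.114 against 22.8, 21.3 and 23.2 (adjusted p = 2.78e-13), and its neighbour Col4a1 fell with it (ratio from 2 counts 94.3-fold, 26.1 to 779). Lamb1 was at 2.41, 2.18 and 1.93 against 26.3, 27.7 and 18.5 (log2 fold change -3.48, SE 0.22, adjusted p = 2.34e-13), and Col7a1, the anchoring fibril collagen, at 3.81, 1.60 and 3.97 against 21.6, 24.4 and 19.7 (log2 fold change -2.79, SE 0.27, adjusted p = 1.35e-09). Of the matrix protease inhibitors, Timp2 was at 11.9, 9.45 and 9.31 against 289, 316 and 263 (log2 fold change -4.82, SE 0.26, adjusted p = 1.64e-14), while Timp3 was at 78.6, 83.4 and 76.5 against 0.0591, 0.822 and 0.820 (log2 fold change 7.19, SE 0.49, adjusted p = 1.41e-12). Mmp14 fell (-1.53) and Mmp2 rose (3.48), and of 19 matrix protease and inhibitor genes 5 rose and 9 fell.

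YAP and TAZ are coactivators that respond to tension and to cell contact, and 15 of 23 genes of this pathway fell while 1 rose (median -1.18, -0.64 with a length offset, which gave 12 lower and 2 higher). Their target Ccn2 was at 1.27, 0.436 and 0.568 scaled CPM in PKP4-KO and 51.6, 55.2 and 34.8 in WT (log2 fold change -5.94, SE 0.49, adjusted p = 8.79e-11). Axl was at 37.6, 28.1 and 36.7 against 162, 194 and 187 (log2 fold change -2.41, SE 0.16, adjusted p = 7.82e-13) and Amotl2 at 13.8, 10.9 and 11.02 against 72.5, 72.6 and 41.5 (log2 fold change -2.38, SE 0.31, adjusted p = 2.69e-07), while the libraries overlapped for Ccn1 (-0.52, adjusted p = 0.127). Wwtr1, which encodes TAZ, fell (log2 fold change -1.76, SE 0.21, adjusted p = 6.16e-08), and Yap1 fell (log2 fold change -0.69, SE 0.13, adjusted p = 5.02e-05) but was at -0.067 with the offset.

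Of the TGF-beta, BMP and EMT genes 14 of 23 fell and 3 rose (median -1.11), against 11 and 3 with a length offset (median -0.60). The repressor genes Twist1, at 2.92, 1.74 and 2.27 scaled CPM against 19.96, 22.96 and 17.4 (log2 fold change -3.11, SE 0.33, adjusted p = 1.03e-08), and Snai2, at 8.76, 11.6 and 7.84 against 47.7, 39.108 and 26.9 (log2 fold change -2.02, SE 0.21, adjusted p = 6.98e-09), fell, while Snai1 was at 27.1, 27.5 and 16.9 against 0.0591, 0.176 and 0.205 (log2 fold change 7.36, SE 0.72, adjusted p = 4.2e-09). The receptor gene Tgfbr1 (-2.34) and Smad3 (-1.85) fell. Id1, a target of BMP signals, was at 232, 268 and 240.4 against 73.2, 78.9 and 105 (log2 fold change 1.53, SE 0.23, adjusted p = 2.49e-06), while Id2 fell (-1.16). Among 12 EGF receptors and ligands 3 rose and 5 fell (1 higher and 7 lower without TMM factors, and 3 and 3 with a length offset). Epgn, the epigen gene, was at 260.4, 282 and 229 against 27.3, 26.2 and 22.4 (log2 fold change 3.34, SE 0.25, adjusted p = 8.78e-12), Areg rose (1.15; adjusted p = 0.346 with a length offset), and Tgfa fell to 78.5, 48.3 and 53.03 from 117, 129 and 106 (log2 fold change -0.97, SE 0.20, adjusted p = 0.000219).

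Immediate-early genes were mixed, with 6 of 18 higher and 5 lower (3 higher and 8 lower without TMM factors). Ier3 was at 701, 645 and 510.3 scaled CPM against 66.2, 62.4 and 182 (log2 fold change 2.58, SE 0.43, adjusted p = 1.41e-05), with the third WT library the highest of its group. Atf3 was at 14.4, 15.7 and 16.4 against 1.59, 1.88 and 1.23 (log2 fold change 3.28, SE 0.31, adjusted p = 1.39e-09), and Egr1 at 7.24, 4.94 and 3.63 against 24.5, 19.6 and 21.6 (log2 fold change -2.06, SE 0.24, adjusted p = 6.73e-08).

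Several epithelial cytokines and antimicrobial genes were higher in PKP4-KO. The list held 13 higher and 5 lower genes of 34 (median 0.74), 7 and 10 without TMM factors, and 10 and 9 with a length offset. Tslp, an alarmin that drives type 2 inflammation of the skin, was at 173, 177 and 108 scaled CPM in PKP4-KO and 3.13, 1.82 and 3.38 in WT (log2 fold change 5.80, SE 0.40, adjusted p = 2.51e-12). Il33, another alarmin, was at 187, 175 and 162 against 27.9, 31.5 and 24.2 (log2 fold change 2.65, SE 0.24, adjusted p = 3.36e-10). Rescue libraries had 10.1, 11.2 and 18.4 for Tslp and 20.7, 22.2 and 35.7 for Il33. Defb4, a beta-defensin, was at 145, 162 and 108 against 9.51, 7.16 and 17.6 (log2 fold change 3.61, SE 0.79, adjusted p = 0.000424), and Il36a rose as well (log2 fold change 2.08, SE 0.39, adjusted p = 6.16e-05). In contrast, Il36b (-1.15), Il36g (-1.15) and the chemokine genes Cxcl5 (-1.69) and Cxcl3 (-1.32) fell. Of 37 interferon-stimulated genes 17 passed the filter on low counts, 5 higher and 4 lower, or 1 higher and 7 lower without TMM factors.

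Nearly all genes of glycolysis and of the response to low oxygen were higher, a programme in which hypoxia-inducible factors bind short response elements near genes for glucose use, angiogenesis and mitochondrial turnover. Of 32 tested members 26 rose and 2 fell, with a median of 1.59; without TMM factors 19 rose and 4 fell, and with a length offset 26 rose and none fell. Ndrg1 (chromosome 15, 66801166 to 66841835), a stress and differentiation gene, was at 1610.3, 1343 and 1215 scaled CPM in PKP4-KO and 88.2, 105 and 104 in WT (log2 fold change 3.81, SE 0.18, adjusted p = 1.54e-15). Egln3, an oxygen sensor that is itself a target of the factors, was at 298, 257 and 229.6 against 26.8, 25.1 and 26.3 (log2 fold change 3.33, SE 0.20, adjusted p = 1.49e-13), and Ankrd37 at 180.2, 213 and 142 against 7.03, 7.52 and 13.8 (log2 fold change 4.25, SE 0.42, adjusted p = 2.82e-09). Adm, the adrenomedullin gene, was at 16.005, 10.2 and 7.84 against 0, 0.411 and 0.103 (log2 fold change 5.92, SE 0.65, adjusted p = 1.97e-08). For all 4 genes every PKP4-KO library exceeded every WT library.

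The windows of 250 bases before the start sites of 3 of these genes are printed because they show the range in the core of the hypoxia response element, ACGTG, which was searched on both strands; capitals mark its matches, and all 3 are written 5′ to 3′ on the strand of the gene (RefSeq, GRCm38.p6; Ankrd37 chr8:45999851-46000100, reverse strand; Egln3 chr12:54203875-54204124, reverse strand; Adm chr7:110627407-110627656, forward strand).
Ankrd37 promoter: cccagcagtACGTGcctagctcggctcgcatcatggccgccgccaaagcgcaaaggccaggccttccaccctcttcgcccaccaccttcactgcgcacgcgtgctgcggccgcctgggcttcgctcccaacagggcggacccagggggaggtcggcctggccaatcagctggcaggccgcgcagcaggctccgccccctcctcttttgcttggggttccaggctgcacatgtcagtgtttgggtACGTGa
Egln3 promoter: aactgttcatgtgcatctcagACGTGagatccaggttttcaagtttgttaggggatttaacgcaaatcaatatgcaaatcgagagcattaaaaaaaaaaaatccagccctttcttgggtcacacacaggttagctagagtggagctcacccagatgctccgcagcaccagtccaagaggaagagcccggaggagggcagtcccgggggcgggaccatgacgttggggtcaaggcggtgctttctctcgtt
Adm promoter: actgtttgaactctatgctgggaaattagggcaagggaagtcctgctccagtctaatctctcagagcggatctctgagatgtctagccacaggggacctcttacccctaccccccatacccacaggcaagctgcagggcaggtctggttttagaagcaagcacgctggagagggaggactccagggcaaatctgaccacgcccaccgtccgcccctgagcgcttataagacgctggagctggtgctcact

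Ankrd37 had 2 matches, Egln3 had 1 and Adm had 0. Of the 32 tested members 30 had a window in the table, and 19 of these (63.3%) held the letters, as did 16 of the 25 members with a window that rose (64.0%). Over all genes with a window, 4998 of 27025 (18.5%) held them. Counted by start site, since some genes have several, it was 21 of 41 (51.2%) for the members and 5444 of 32851 (16.6%) for all. The members were chosen for their place in glycolysis or the response to low oxygen, and all genes with a window include untested ones. The contrast with all genes therefore cannot bear on the difference between PKP4-KO and WT. A match is a description of the sequence and does not show that a factor binds there.

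Glycolytic genes rose at nearly every step from glucose uptake to lactate. Slc2a1, the glucose transporter, was at 211, 168 and 164 scaled CPM against 84.1, 74.9 and 92.4 (log2 fold change 1.11, SE 0.14, adjusted p = 1.77e-07), and Hk2, which phosphorylates glucose, at 117, 101 and 98.8 against 31.3, 26.2 and 24.4 (log2 fold change 1.95, SE 0.14, adjusted p = 4.04e-12). Ldha, which makes lactate, was at 4730.5, 4787 and 4887 against 1285, 1339 and 1614 (log2 fold change 1.77, SE 0.13, adjusted p = 7.75e-12). Gpi1 (0.68; -0.05 without TMM factors), Pfkl (1.26), Pfkp (1.93), Aldoa (0.90), Tpi1 (1.53), Pgk1 (1.197), Pgam1 (0.44; -0.34 without TMM factors), Eno1 (1.38) and Pkm (1.18) rose between these steps. Bnip3, which marks mitochondria for removal, was at 182, 210.5 and 169 against 24.4, 24.1 and 17.02 (log2 fold change 3.09, SE 0.25, adjusted p = 6.15e-11). Gapdh, of which many copies exist in the genome, was not called (1.83, adjusted p = 0.124), and Hif1a, the gene of the factor itself, was at 32.1, 29.1 and 26.1 against 77.1, 89.3 and 23.3 (log2 fold change -1.12, SE 0.50, adjusted p = 0.059), which does not pass the test. Bnip3l (-0.42) and Pfkfb3 (-0.46; 0.045 with a length offset) fell.

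The integrated stress response, which cells use when amino acids run short or proteins misfold, had 11 of 29 members higher and 3 lower, and 8 and 16 without TMM factors and 15 and 0 with a length offset. The members with large changes were its transcription factors and their targets: Atf4 was at 1215, 1261 and 1077 scaled CPM against 309.7, 288 and 432 (log2 fold change 1.79, SE 0.18, adjusted p = 4.56e-09), Ddit3, the CHOP gene, at 157, 165 and 111 against 13.6, 11.5 and 14.7 (log2 fold change 3.44, SE 0.27, adjusted p = 3.57e-11), and Trib3 at 399.9, 364 and 306 against 21.6, 22.7 and 25.5 (log2 fold change 3.94, SE 0.21, adjusted p = 7.71e-15). Chac1 (1.53), Mthfd2 (1.37) and Shmt2 (1.15) rose as well. Of the chaperone genes of the endoplasmic reticulum, Hspa5 was at 0.094 (adjusted p = 0.707), Hsp90b1 was lower at -0.69 (adjusted p = 0.0538 with a length offset) and Sdf2l1 was higher at 1.43.

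Genes of the ribosome and of the respiratory chain were mostly called higher, and the number of calls moved with the third WT library and with the scaling. Of 81 ribosomal protein genes 51 rose and 0 fell (median 1.32); without TMM factors 18 rose and 4 fell (median 0.63), and without the third WT library 65 rose. Rps27 was at 3325, 5144 and 3688 scaled CPM against 388, 318 and 1536 (log2 fold change 2.44, SE 0.99, adjusted p = 0.041) and Rplp1 at 17993, 22952 and 18516 against 3659.9, 3202 and 9234 (log2 fold change 1.89, SE 0.66, adjusted p = 0.0184), with the third WT library between the other WT and the PKP4-KO libraries in both. These genes took 27.0 to 29.3% of the reads in PKP4-KO and 18.2, 16.4 and 22.3% in WT. They are short and have many processed copies, so that reads may be shared. Of 76 nuclear genes for oxidative phosphorylation 47 rose and 0 fell (median 1.22), 18 and 5 without TMM factors, and 63 and 0 without the third WT library. Cox7c was at 1443, 1963 and 1687 against 147, 123.1 and 660.2 (log2 fold change 2.45, SE 1.01, adjusted p = 0.0439), again with the third WT library high, while Ndufc2 was at 735, 954 and 868 against 265, 244 and 305 (log2 fold change 1.65, SE 0.29, adjusted p = 2.59e-05) with close WT libraries. Atp5b, of the ATP synthase, rose (1.02), and Sdha (0.063, adjusted p = 0.778) was not called.

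Cholesterol and fatty acid synthesis had 13 of 31 genes lower and 2 higher, or 11 and 5 with a length offset and 26 and 1 without TMM factors. Hmgcs1 was at 93.5, 81.0 and 85.2 scaled CPM against 226, 224 and 130.0 (log2 fold change -1.16, SE 0.28, adjusted p = 0.000962), and the desaturase genes Fads1 (-1.78) and Fads2 (-1.63) fell. Scd1, a desaturase of sebaceous glands, was at 48.4, 52.8 and 47.9 against 0.650, 0.705 and 0.513 (log2 fold change 6.27, SE 0.72, adjusted p = 4.38e-08). The targets of NRF2, the regulator of antioxidant genes, were split into 8 higher and 10 lower of 27, or 2 higher and 19 lower without TMM factors. Gclc, the rate-limiting enzyme of glutathione synthesis, was at 46.2, 49.4 and 66.4 against 259, 269 and 152 (log2 fold change -2.07, SE 0.28, adjusted p = 6.97e-07), and Fth1, the ferritin heavy chain, at 1980.4, 2207 and 2061 against 5373, 4905 and 5984 (log2 fold change -1.38, SE 0.14, adjusted p = 3.23e-09). Prdx1 rose (log2 fold change 1.55, SE 0.16, adjusted p = 8.7e-09).

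Cell cycle genes did not move in one direction. Of 38 DNA replication genes 8 rose and 12 fell (median -0.11), 14 and 10 with a length offset, and 2 and 29 without TMM factors. Of 34 mitosis genes 7 rose and 10 fell (median -0.15), 12 and 6 with a length offset, and 0 and 24 without TMM factors. Mki67, a marker of cycling cells, was at 6.22, 4.22 and 4.09 scaled CPM against 35.7, 32.003 and 9.13 (log2 fold change -2.41, SE 0.43, adjusted p = 4.09e-05), with the third WT library near PKP4-KO. Cdk1 was at 188, 207.000 and 202 against 136, 126 and 134 (log2 fold change 0.59, SE 0.12, adjusted p = 0.000116; -0.18 without TMM factors), and Rfc3 at 11.1, 11.2 and 11.7 against 51.6, 47.2 and 52.2 (log2 fold change -2.15, SE 0.15, adjusted p = 2.21e-12). Orc1 rose (2.34) and Pcna (0.66) turned to -0.12 without TMM factors. Among p53 targets and cell cycle inhibitors 12 of 26 fell and 5 rose (2 higher and 20 lower without TMM factors). Cdkn1a, the p21 gene, was at 1165, 1009.7 and 999.6 against 289, 324 and 610.4 (log2 fold change 1.38, SE 0.27, adjusted p = 0.000126), while Fas (-1.96), Pmaip1 (-2.26) and Ccng1 (-1.30) fell.

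Hox genes, which encode homeobox factors laid out along the body axis, had 16 of 27 tested members higher and none lower, out of 42 Hox and Cdx genes, or 12 higher and 3 lower without TMM factors. Their median was 4.24, or 2.84 with genes at the floor set to their bound. The filter kept a gene with enough counts in as few libraries as a group holds. Members with no or almost no reads in WT thus entered through groups where they are higher, which limits what the median and the split of calls can show. Hoxa7 was at 21.1, 26.02 and 23.6 scaled CPM in PKP4-KO and 0.118, 0 and 0.718 in WT (log2 fold change 6.72, SE 0.77, adjusted p = 4.22e-08), and Hoxb7 at 13.1, 13.2 and 13.4 against 0.709, 0.587 and 0.820 (log2 fold change 4.24, SE 0.29, adjusted p = 1.31e-12). Hoxb13 had 2.03, 1.74 and 2.04 in PKP4-KO and no read in WT, at least 8.81-fold higher. Cdx2, a relative that acts upstream of Hox genes in the embryo, was at 3.56, 5.23 and 5.11 against 0, 0.117 and 0.103 (adjusted p = 5.84e-07; ratio from 3 counts 67.5-fold, 23.1 to 327). Hoxc13, a hair and nail gene, did not pass the test (log2 fold change 0.14, adjusted p = 0.602). The log2 fold changes at 24 h HCM were alike, 6.11 for Hoxa7 and 3.99 for Hoxb7, and Rescue libraries had 3.24, 2.38 and 2.14 and 18.9, 17.8 and 18.1.

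The PKP4-KO minus WT difference was also compared between 24 h and 72 h of HCM. The cornified envelope list had medians of -2.09 at 24 h and -1.72 at 72 h. An interaction term, which compares the PKP4-KO minus WT difference at 72 h with that at 24 h, was called for 1628 genes in the positive direction (10.8% of those tested) and 2390 in the negative (15.8%), or 715 and 6613 without TMM factors. Of the genes called at 72 h, 3691 were called in the same direction at 24 h and 528 in the opposite one, 248 of them higher at 72 h. Tgm1 was lower in PKP4-KO at 24 h (log2 fold change -3.59) and higher at 72 h (2.35), a difference of 5.93 (adjusted p = 3.35e-14). Krt6b went from -2.23 to 1.60 (adjusted p of the difference = 2.6e-11), Ndrg1 from -1.88 to 3.81 (adjusted p = 2.47e-15) and Il33 from -2.69 to 2.65 (adjusted p = 1.33e-12). Of 28 barrier lipid and transglutaminase genes 25 had a positive difference and 1 a negative one, and the list's median was -2.18 at 24 h. The proteases and inhibitors had 20 positive differences of 27 and none negative (median -1.997 at 24 h). All 4 stress keratins had a positive one. Tight junction genes were lower already at 24 h (median -2.19), and 11 of 22 had a positive difference against 2 negative ones.

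Cell cycle genes ran the other way. At 24 h the medians of the DNA replication and mitosis lists were 0.996 and 0.84, and 26 of 38 and 26 of 34 had a negative difference, with none positive. The genes with the largest differences among those called in opposite directions were Pycard (-3.94 at 24 h, 3.88 at 72 h), which encodes the inflammasome adaptor, Dlg2 (-2.11 and 4.06), a scaffold of cell contacts, and Mndal (-3.29 and 2.58) on one side. Wnt3a (1.34 and -2.11), a Wnt ligand, and Ctnnal1 (2.12 and -1.29), an alpha-catenin relative, were on the other.

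**Figure D5:**
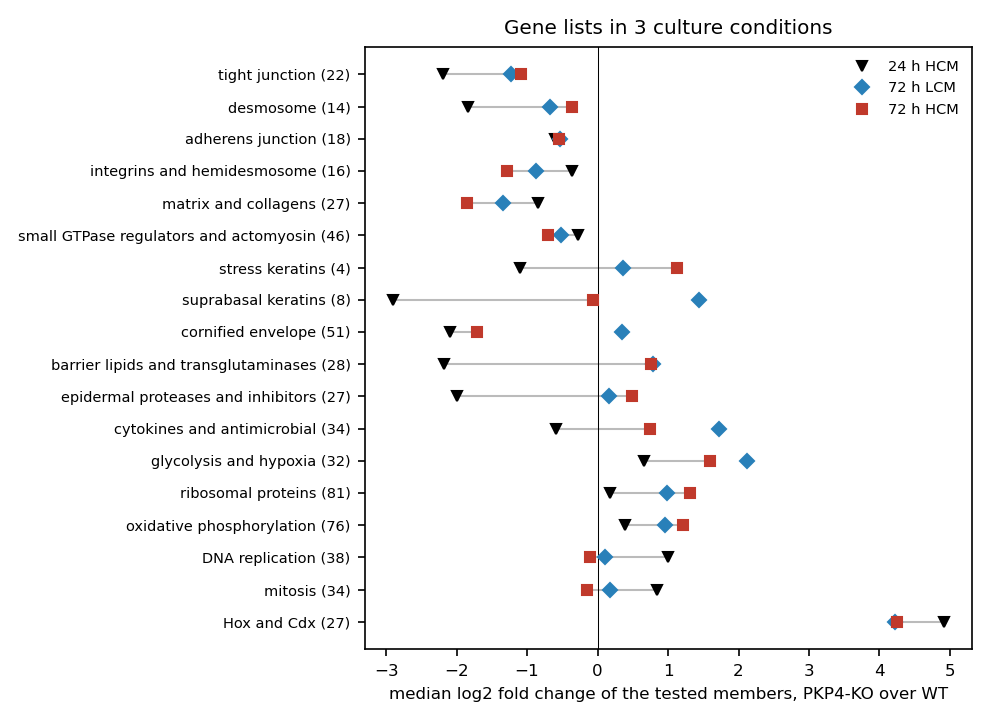
Median log2 fold change of PKP4-KO over WT (horizontal axis) for the tested members (number in brackets) of 18 gene lists at 24 h HCM, 72 h LCM and 72 h HCM, with a grey line from 24 h to 72 h HCM. Barrier lipid, protease and stress keratin genes pass from below 0 at 24 h to above 0 at 72 h, DNA replication and mitosis genes pass the other way, and cornified envelope genes are below 0 in HCM at both times and above 0 in LCM.

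The difference from WT at 72 h was mostly shared between the media. An interaction term of genotype and medium was called for 280 genes in the positive direction (1.85%) and 587 in the negative (3.88%), or 88 and 1216 without TMM factors, and 5226 genes were called in the same direction in both media against 73 in opposite ones. Cornified envelope genes had 22 of 51 negative and 2 positive differences. Their median was 0.35 in LCM and -1.72 in HCM. Lor had a log2 fold change of -0.28 in LCM and -2.56 in HCM (adjusted p of the difference = 0.00505), Ivl -0.91 and -2.83 (adjusted p = 0.00189), and Crct1 -0.09 and -2.09 (adjusted p = 0.0018). Krt1 and Krt10 were higher in both media, with 5.93 and 4.60 in LCM. Krt4 was higher in LCM (2.16) and lower in HCM (-0.77), and Il33 was at -0.56 in LCM and 2.65 in HCM. The immediate-early list had 9 negative differences of 18 and none positive, from a median of 1.56 in LCM to -0.36 in HCM, and the glycolysis and hypoxia list 7 of 32 and none positive (median 2.12 in LCM).

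The cultures were checked for other cell types, since in bulk RNA fewer cells of a type and less RNA per cell cannot be told apart. All 10 keratinocyte markers were detected, with a summed level of 69851 to 76226 scaled CPM in PKP4-KO and 54377 to 64052 in WT. Fibroblast markers summed to 0.727 to 2.73 in PKP4-KO and 8.82 to 12.04 in WT, nearly all of it Twist2, while Pdgfrb and Lum had no read and Col1a1, Col1a2, Col3a1, Dcn and Dpt had 12 or fewer over the 6 libraries together. Melanocyte markers summed to 1.14 to 1.74 in PKP4-KO and 1.64 to 3.29 in WT, with Tyr, Sox10 and Kit at 0. Immune markers summed to 34.0 to 48.7 and 33.6 to 61.1, nearly all of it Cd68 (log2 fold change -0.052, not called), with Cd52, Cd207 and Tyrobp at 0. Endothelial markers summed to 4.22 to 6.73 and 2.87 to 4.84, with Cdh5, Emcn and Cldn5 at 0. Merkel cell markers summed to 8.14 to 10.6 in PKP4-KO and 15.4 to 24.5 in WT, with Atoh1 at 0. Muscle and nerve markers summed to 271 to 294 and 121 to 171, nearly all of it Tubb3, with Myh1 and Myh2 at 0. Hair follicle and sebocyte markers, which include Krt15 and Scd1, summed to 1155 to 1591 in PKP4-KO and 169 to 222 in WT. Most of each sum was Krt15, named above as a keratin of basal cells. Of the 6 tested markers 5 rose, where 21.9% of all tested genes did. Their part in the differences of keratin and lipid genes was not tested.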

How the data were processed

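Poly(A) RNA of murine keratinocytes was sequenced strand-specifically as read pairs. The authors aligned the reads with HISAT2 2.1.0 to the mouse genome mm39, extended by the GFP-PKP4 transgene, and counted them per gene of Ensembl release GRCm39.105 with featureCounts 2.0.0 (SAMtools 1.10), and deposited a table of raw counts for 36 libraries; the strand setting of the counting is not given in the sources used here, so overlapping genes on opposite strands are uncertain. From these counts, groups were taken from the labels, and edgeR 4.0.16 (R 4.3.3) was run with filterByExpr, TMM factors and the quasi-likelihood test on 12 group means (24 residual degrees of freedom). The contrasts were PKP4-KO minus WT at 72 h HCM and its interactions with time and with calcium, with Benjamini-Hochberg adjustment over all 15114 tested genes of 55358 and a threshold of 0.05. Every adjusted p in the text is from this test unless an alternative is named. SE is an approximate standard error, the absolute log2 fold change divided by the square root of the F statistic of this test. It is least certain for genes with few reads in a group.

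Alternatives were DESeq2 1.42.0, edgeR's exact test, no TMM factors, other filters, only the groups compared, offsets for gene length or GC content, a replicate block, and each of the 6 libraries left out. The length offset without the third WT library was added after the data were seen. Counts were also simulated from the mean levels over all 36 libraries, with the same dispersion for every gene. In these data 43.8% of 96 genes with an absolute log2 change of 1 and 88.8% of 98 with a change of 2 were called, with 8 false calls of 14089 genes.

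The comparison and the gene lists were chosen with earlier results of these data known. Genes were named by rule: Pkp4, the 15 genes with the largest called change in each direction that did not overlap between groups and reached 10 scaled CPM, the 10 with the most reads per group, in each list up to 4 members with the largest called change (at least 5 scaled CPM) and the 2 highest, the genes of proteins that the study follows, and the 5 largest interactions per direction with opposite effects. Other list members named were chosen after their values were seen. Promoter windows came from RefSeq (GRCm38.p6), gene positions from GRCm39. Some genes are not reported here.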

Additional observations from a re-analysis of the deposited data

Results flagged for a closer look

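The following results differed between conditions by an interaction term in the edgeR fit, which tests the difference of the PKP4-KO minus WT log2 fold change itself. Between 72 h and 24 h HCM 4018 genes passed this test, and between HCM and LCM at 72 h 867 did. Each gene below was called in opposite directions in the 2 conditions, and the first value is the difference.

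For time in HCM, the largest positive differences were those of Pycard (7.83, adjusted p = 1.75e-08), Dlg2 (6.17, adjusted p = 5.4e-07), Tgm1 (5.93, adjusted p = 3.35e-14), Mndal (5.87, adjusted p = 1.29e-06) and Pinlyp (5.81, adjusted p = 2.19e-07). Pycard was at 17.9, 21.8 and 17.7 scaled CPM in PKP4-KO and 2.07, 0.646 and 1.13 in WT at 72 h. The largest negative differences were those of Wnt3a (-3.45, adjusted p = 1.51e-10), Ctnnal1 (-3.41, adjusted p = 5.65e-08), Dll1 (-3.33, adjusted p = 4.81e-07), Egr1 (-3.15, adjusted p = 4.17e-08) and Phldb1 (-3.14, adjusted p = 1.08e-08).

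For calcium at 72 h, the largest positive differences were those of Il33 (3.21, adjusted p = 1.38e-07), Rassf2 (2.50, adjusted p = 0.000493), Id3 (2.48, adjusted p = 9.38e-09), Ccdc88c (2.47, adjusted p = 5.87e-06) and Foxn1 (2.11, adjusted p = 1.73e-06), a transcription factor gene of keratinocyte differentiation. The largest negative ones were those of Ripor3 (-3.71, adjusted p = 0.000203), Kcnn4 (-3.43, adjusted p = 2.97e-09), Anxa9 (-3.25, adjusted p = 0.000114), Krt4 (-2.93, adjusted p = 1.49e-05) and Fst (-2.79, adjusted p = 0.000612), the follistatin gene. No search was made gene by gene for a library far from the others of its group. Over all genes the third WT library stood apart, as given above.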

How the results depend on the processing

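The scaling changed the results most. Without TMM factors 1268 genes were higher and 8133 lower, the median of all tested genes went from -0.072 to -0.83, the interaction with time was called for 7328 genes (715 positive and 6613 negative) and that with calcium for 1304 (88 and 1216). Genes that changed sign without TMM factors, some of them named only here, included Racgap1 (-0.75), Krt14 (-0.66), Asprv1 (-0.66), Pkp3 (-0.63), Krt7 (-0.63), Perp (-0.59), Krt5 (-0.57), Hoxb9 (-0.57), Rhoa (-0.56), Phlda3 (-0.55), Psat1 (-0.48), Cdc42 (-0.46), Arpc2 (-0.43), Tgfbi (-0.42), Plec (-0.32), Eef1a1 (-0.31), Arhgef2 (-0.29), F11r (-0.28), Fdft1 (-0.25), Rplp0 (-0.20), Pcna (-0.12), Ube2c (-0.065), Krt16 (-0.049), Enah (-0.034), Krt6a (-0.003), Cdk1 (-0.18), Arpc4 (-0.16), Gpi1 (-0.05) and Pgam1 (-0.34). Those that changed sign with a length offset included Sprr1a (-0.59), Ptk2 (0.017), Myh9 (0.18), Flna (0.16) and Pfkfb3 (0.045), and with the offset and without the third WT library, a choice made after the data were seen, Notch1 (0.0056), Sprr1a (-0.62), Yap1 (0.063) and Myh9 (0.29) were among those that did. The calcium interaction was called for 503 genes without a filter (159 positive and 344 negative) and for 459 with only the groups compared in the fit (264 negative), and had 439 positive calls with the length offset, 513 with the offset and without the third WT library, and 465 with DESeq2. Without a filter more genes were tested, and with only the groups compared fewer libraries entered the fit; the cause of the other shifts was not tested.

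The counts of genes higher and lower at 72 h HCM were within 1.5 times the reported ones in every other alternative run, from 2550 to 3884 higher and 3846 to 4640 lower when 1 library was left out. The replicate block gave 3277 and 4467, and changed no call of a named gene. The replicate numbers did not pair the libraries: deviations of same-numbered PKP4-KO and WT libraries correlated at 0.023, -0.111 and -0.079. Pkp4 stayed lower in each alternative. Medians with at least 10 counts in every library could not be computed for the fibroblast, melanocyte and endothelial markers. The self-test called 43.8% of simulated log2 changes of size 1, so smaller differences could pass undetected. Its counts had the same dispersion for every gene, no library that stood apart and no length gradient. Its rates of true and false calls therefore need not hold for the real libraries.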

Other observations

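Among the genes with the most reads that belong to none of the lists, Gsto1, a glutathione transferase of the omega class, was at 8890.4, 9183 and 8277 scaled CPM in PKP4-KO and 13207, 12436 and 15988 in WT (log2 fold change -0.66, SE 0.14, adjusted p = 0.000236). Eef1a1, the elongation factor that brings aminoacyl-tRNA to the ribosome, was at 25545, 24178 and 24720.0 against 17202, 17430.0 and 20067 (log2 fold change 0.44, SE 0.12, adjusted p = 0.00366) and turned to -0.31 without TMM factors. Interferon-stimulated genes were called in both directions. Bst2, the tetherin gene, was at 4.57, 4.65 and 6.25 against 0.354, 0.176 and 0.923 (log2 fold change 3.51, SE 0.71, adjusted p = 0.000185), Isg20 rose (log2 fold change 1.16, SE 0.32, adjusted p = 0.00346), and Ddx58, the gene of the RNA sensor RIG-I, was at 6.99, 8.14 and 10.8 against 14.9, 20.6 and 13.1 (log2 fold change -0.91, SE 0.22, adjusted p = 0.00116).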
